A study of Homo sapiens with 10 samples.

Results

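The genes examined were TXNIP and 9 genes of the pathway around it, 10 of the 58884 genes in the count tables. The alpha-arrestins were TXNIP, ARRDC1, ARRDC2, ARRDC3 and ARRDC4, the glucose-sensing transcription factors were MLXIP, MLXIPL and MLX, and thioredoxin (TXN) and the glucose transporter SLC2A1 completed the set. TXNIP was chosen because its RNA rose from near 0 in the comparison described here, so its values are given as a description with no test. The other 9 genes were chosen by family or function.

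RNA-seq was performed on HCT116 cells, a human colorectal carcinoma line with the genotype WT, and on DNMT1 KO cells, which were derived from HCT116 by deleting exons of DNMT1. DNMT1 is the methyltransferase that copies DNA methylation to newly replicated strands. The derivative is a hypomorph rather than a null, since it makes a low amount of shortened DNMT1, and it is a single derived line. Both lines were grown in McCoy's 5A medium with fetal calf serum, penicillin and streptomycin, and the labels give neither a glucose concentration nor a change of medium. There were 6 HCT116 libraries (replicates 1, 2, 3, 7, 8 and 9) and 4 DNMT1 KO libraries (replicates 1 to 4). The labels place replicate 1 of both lines in batch 1, replicates 2 and 3 of both lines in batch 2, DNMT1 KO replicate 4 in batch 3 and HCT116 replicates 7 to 9 in batch 4.

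Alpha-arrestins are adaptor proteins that bring membrane proteins together with ubiquitin ligases of the NEDD4 family and so direct their uptake from the cell surface. TXNIP binds thioredoxin and restrains its reducing activity, and it also promotes removal of the glucose transporter GLUT1, the product of SLC2A1, from the plasma membrane. Transcription of TXNIP and of its closest relative ARRDC4 is induced by glucose through MondoA (MLXIP) or ChREBP (MLXIPL), each of which binds DNA as a heterodimer with MLX at a carbohydrate response element, a pair of E-box-like hexamers separated by a short spacer.

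The promoters of TXNIP and ARRDC4 are shown because these genes are the known glucose-induced members of the family and because their RNA was highest in the same DNMT1 KO library. That library, replicate 3, was also the highest of its group for ARRDC3, MLXIPL and MLX, and for 36.3% of all genes tested. Both sequences are the 250 bases before the transcription start, read 5′ to 3′ on the gene's strand, from the RefSeq promoter windows on GRCh38.p14. Capitals mark exact matches of the E-box-like hexamers CACGAG and CACGTG alone, which are CACGAG in TXNIP and CACGTG in ARRDC4. Both sequences also hold CACGCG in lower case, which matches the looser form CACGNG with any base at the fifth position.
TXNIP, chr1:145996580-145996829, minus strand: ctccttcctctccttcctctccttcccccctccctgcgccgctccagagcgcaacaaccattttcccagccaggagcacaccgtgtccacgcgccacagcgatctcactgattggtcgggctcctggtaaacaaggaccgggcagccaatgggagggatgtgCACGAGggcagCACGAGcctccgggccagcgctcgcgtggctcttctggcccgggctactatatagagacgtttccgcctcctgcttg
ARRDC4, chr15:97960453-97960702, plus strand: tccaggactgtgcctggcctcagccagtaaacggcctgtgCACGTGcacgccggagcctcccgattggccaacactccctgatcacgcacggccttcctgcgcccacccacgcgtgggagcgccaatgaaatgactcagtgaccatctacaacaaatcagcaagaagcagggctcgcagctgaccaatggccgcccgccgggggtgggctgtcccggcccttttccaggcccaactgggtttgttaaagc

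All 10 genes matched a RefSeq promoter window of 300 bases (250 before the start and 50 after it), with 13 windows among them because TXNIP, ARRDC2 and ARRDC3 each have more than 1 annotated start. Motifs were searched on both strands. The TXNIP window at the start of the whole gene held CACGAG at 88 to 83 and again at 77 to 72 bases before the start, a direct pair with 5 bases between the hexamers. Of all 35116 RefSeq windows, 6.78% held CACGAG, and 2 windows (0.0057%) held it as a pair with this spacing. With any base at the fifth position of each hexamer (CACGNG), 20 windows (0.057%) held such a pair, and 8 (0.0228%) held CACGNG and CNCGTG facing each other across the same spacer, a form found in 0 of the 10 genes. The ARRDC4 window held CACGTG at 210 to 205 bases before the start, a hexamer found in 7.26% of all windows and, among the 10 genes, in MLX as well. CCAAT, the motif of the NF-Y factor, was found in 8 of the 10 genes, with 2 matches in TXNIP and 3 in ARRDC4. A gene was counted here if any of its windows matched, and TXNIP, ARRDC2 and ARRDC3 each also had a window without a match. Of all single windows, 34.6% had at least 1 match and 10.8% at least 2, so the share of genes and the share of windows differ in unit. The TXNIP window at the start of the whole gene had 19 CpG dinucleotides, and 42.9% of all windows had at least as many. The window of the second, internal TXNIP start had 4 CpG (75.5% of all windows had at least as many), no CACGAG and no CCAAT. ARRDC4 had 24, where the median window had 14. These matches describe the letters in the windows, and neither binding nor DNA methylation was measured in these libraries.

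The HCT116 libraries held 35418732 to 85991812 counts each and the DNMT1 KO libraries 26700853 to 55732013, and 19279 genes passed the filter on low counts and were tested. DNMT1 itself lay between 89.8 and 263 CPM (counts relative to the library total) in HCT116 and between 14.1 and 22.3 CPM in DNMT1 KO, with a log2 fold change of -2.97 ± 0.33 (SE, adjusted p = 1.74e-05, edgeR's quasi-likelihood test with Benjamini-Hochberg adjustment over all genes tested). In 9 libraries, 64.4 to 70.0% of the genes with 1 to 10 counts had an even count, against 39.9% in DNMT1 KO replicate 4, so that library stood apart in this measure. The sources used here do not say whether both mates of a pair were counted, and if they were in those 9 libraries, a count there is a mate and not a fragment. The colon and epithelial markers EPCAM, CDH1, KRT8 and KRT18 fell and VIL1 rose in DNMT1 KO (5 of 7 tested markers called, against 13.9% of all tested genes), and the summed level of the 8 markers was 2520 to 6130 CPM in HCT116 and 645 to 1431 CPM in DNMT1 KO. The 10 markers of other cell types summed to 9.31 to 20.2 CPM in HCT116 and 13.6 to 19.4 CPM in DNMT1 KO. Of 5 tested, 3 were called higher and 0 lower, against 7.42% and 6.49% of all tested genes. COL3A1 (mean 0.0231 to 4.83 CPM) and PECAM1 (0.0989 to 1.23 CPM) were among those called higher. The sums mix such rises with COL1A1, which went from 12.5 to 6.72 CPM and was not called. Of the blood cell markers, PTPRC had 2 counts in all in each line, and CD3E had 0 in HCT116 and 19 in DNMT1 KO. The part of these differences in the results below was not tested.

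TXNIP (ENSG00000265972, chr1:145992435-145996600, minus strand, hg38) was close to absent from HCT116 and present in every DNMT1 KO library. In HCT116 it had 4 counts in replicate 1 (0.124 CPM), 2 counts in replicate 9 (0.0232 CPM) and no count in replicates 2, 3, 7 and 8. Where no count was found, 3 counts in a library would be 0.0418 to 0.0802 CPM, a floor that takes counts as independent. In DNMT1 KO it had 972, 1928, 11876 and 110 counts in replicates 1 to 4, or 24.6, 34.3, 188 and 3.82 CPM. CPM here uses library totals scaled by the trimmed mean of M values (TMM). The lowest DNMT1 KO library was above the highest HCT116 library, and within DNMT1 KO the level ran over a 49.3-fold range, with replicate 3 highest and replicate 4 lowest. The mean in DNMT1 KO was 62.8 ± 84.8 CPM (SD, n = 4), so the SD was larger than the mean.

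The pooled TXNIP level was 4449 times higher in DNMT1 KO than in HCT116 (95% interval 2044 to 12125, exact conditional on 14886 and 6 counts). Such intervals cover counting error only, and reads without molecular identifiers are not independent molecules. With counts halved in the 9 mostly even libraries, an alternative chosen after seeing the data, the ratio was 3886 (1329 to 18848) from 7498 and 3 counts. The ratio was 1354 (622 to 3694) without DNMT1 KO replicate 3 and 12065 (3339 to 99633) without HCT116 replicate 1. DNMT1 KO replicate 4 alone, the library with the lowest level and with few even counts, was 214 times (95.4 to 597) the pooled HCT116 level. Within batch 1 the ratio was 198 (77.2 to 730). Within batch 2 HCT116 had no count, and DNMT1 KO was 3153 times a floor of 3 counts over both HCT116 libraries. That floor takes counts as independent, so it is too low if mates were counted there. Replicate 3 held 11876 of the 13804 DNMT1 KO counts in batch 2. These ratios are drawn from the values by which TXNIP was chosen, so they describe the difference and do not test it. The intervals reached down to 77.2 in batch 1 and to 95.4 for DNMT1 KO replicate 4. Leaving out DNMT1 KO replicate 3 or HCT116 replicate 1 moved the pooled ratio by more than 1.5 times. TXNIP passed the filter on low counts through the DNMT1 KO libraries, as it had to given how it was chosen. In bulk RNA, fewer cells that express a gene and less RNA per cell cannot be told apart.

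**Figure D1:**
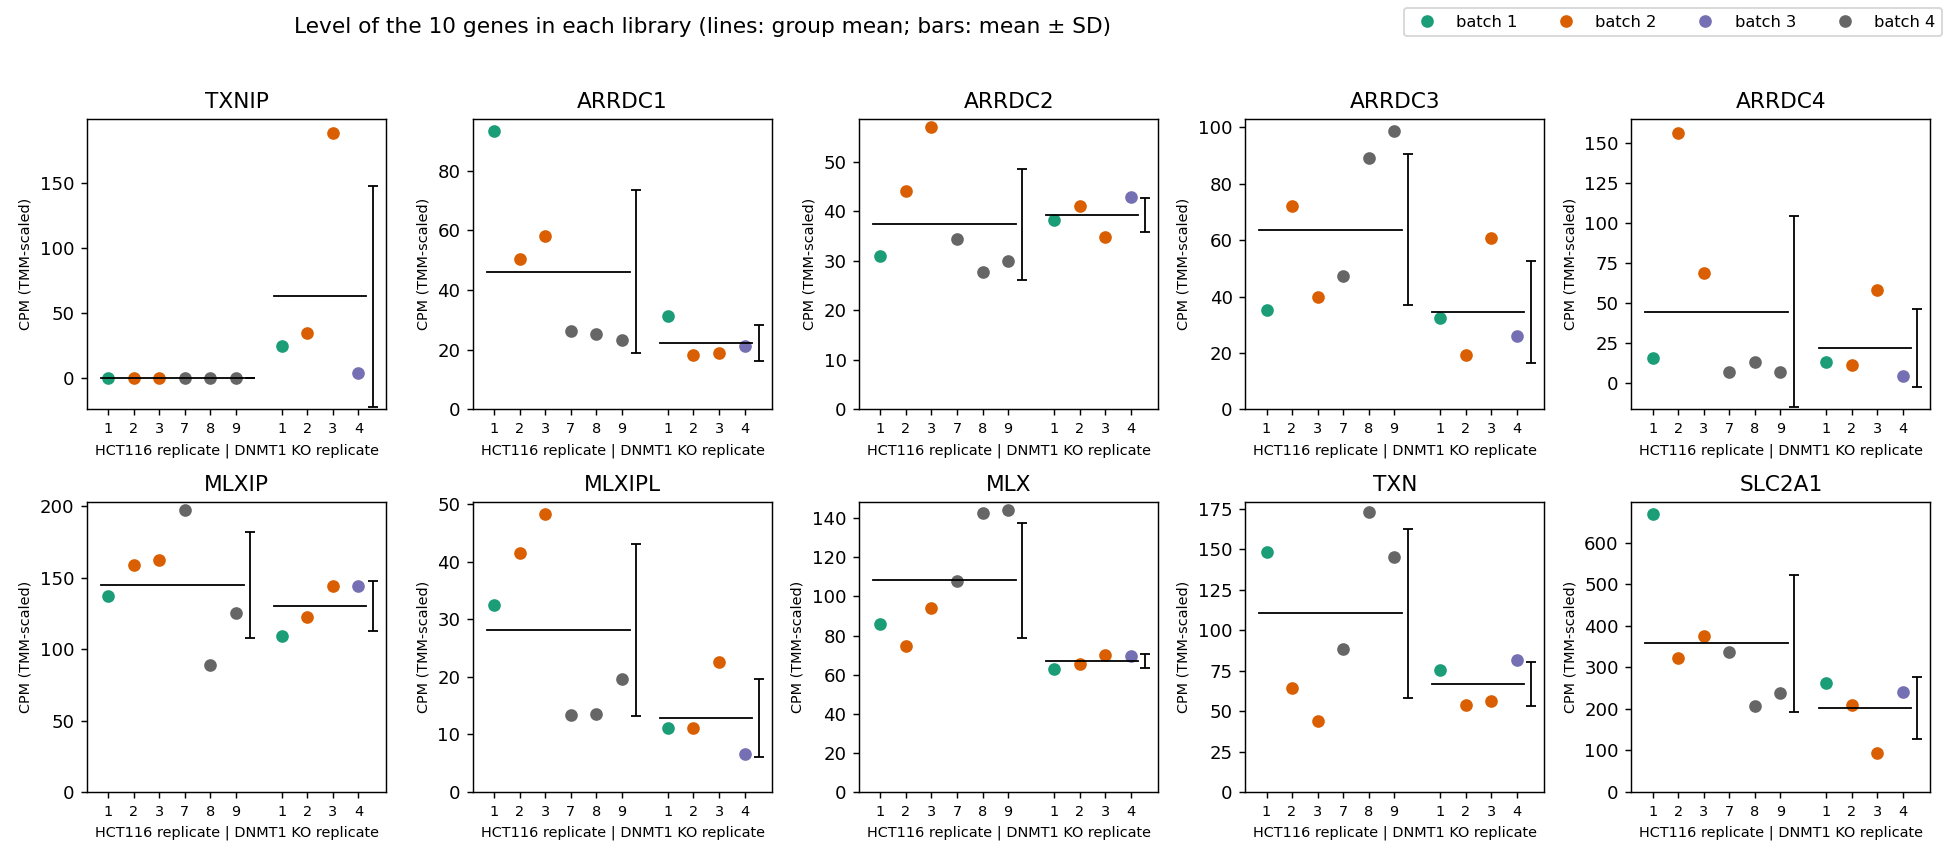
Level of each of the 10 genes (y axis, TMM-scaled CPM) in the 6 HCT116 and 4 DNMT1 KO libraries (x axis, replicate number, coloured by batch), with the group mean as a line and the mean ± SD as a bar. TXNIP lies at the foot of its panel in all 6 HCT116 libraries and reaches 188 CPM in DNMT1 KO replicate 3, while for MLX the 4 DNMT1 KO libraries, at 62.7 to 70.3 CPM, lie below the lowest HCT116 library at 74.9 CPM.

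The other alpha-arrestins were expressed in every library of both lines, and none of them showed the pattern of TXNIP. ARRDC4 (ENSG00000140450, chr15:97960703-97973833, plus strand), a relative of TXNIP that also limits glucose uptake, was 6.51 CPM in the lowest HCT116 library, 14.1 CPM at the median and 156 CPM in the highest. In DNMT1 KO it was 13.0, 11.2, 57.9 and 4.41 CPM in replicates 1 to 4. The groups overlapped in part, with DNMT1 KO replicate 4 below every HCT116 library and HCT116 replicates 2 and 3 above every DNMT1 KO library. The spread within HCT116, 24.0-fold from lowest to highest, was larger than the difference between the means of 44.5 ± 59.7 CPM (SD, n = 6) and 21.6 ± 24.5 CPM (SD, n = 4). The log2 fold change was -1.04 ± 0.91 (SE, adjusted p = 0.508, edgeR), and single libraries decided its size, since it was -2.23 (adjusted p = 0.173) without DNMT1 KO replicate 3 and -0.03 (adjusted p = 0.985) without HCT116 replicate 2.

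ARRDC4 and TXNIP shared their highest and lowest library within DNMT1 KO, replicate 3 and replicate 4 respectively, and MLXIPL had the same highest and lowest library. In HCT116 the libraries richest in ARRDC4 were replicates 2 and 3, at 156 and 68.7 CPM, and neither had a TXNIP count. Per exonic length, TXNIP was 2.12, 3.44, 3.65 and 0.971 times the level of ARRDC4 in DNMT1 KO replicates 1 to 4. In HCT116 this ratio was 0.00893 in replicate 1 and 0.00400 in replicate 9. With 3 counts assumed in the libraries without a count it would be 0.000485, 0.00131, 0.00678 and 0.00410 in replicates 2, 3, 7 and 8. TXNIP was above ARRDC4 in 3 of 4 DNMT1 KO libraries and lay just under it in the other one. It stayed under 1% of ARRDC4 in all 6 HCT116 libraries, with the same 3 counts assumed where none was found. DNMT1 KO replicate 3 was the highest of its group for 5 of the 10 genes (TXNIP, ARRDC3, ARRDC4, MLXIPL and MLX), where it was highest for 36.3% of all tested genes. DNMT1 KO replicate 4 was the lowest for 3 of the 10 (TXNIP, ARRDC4 and MLXIPL), where it was lowest for 26.0% of all tested genes.

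**Figure D2:**
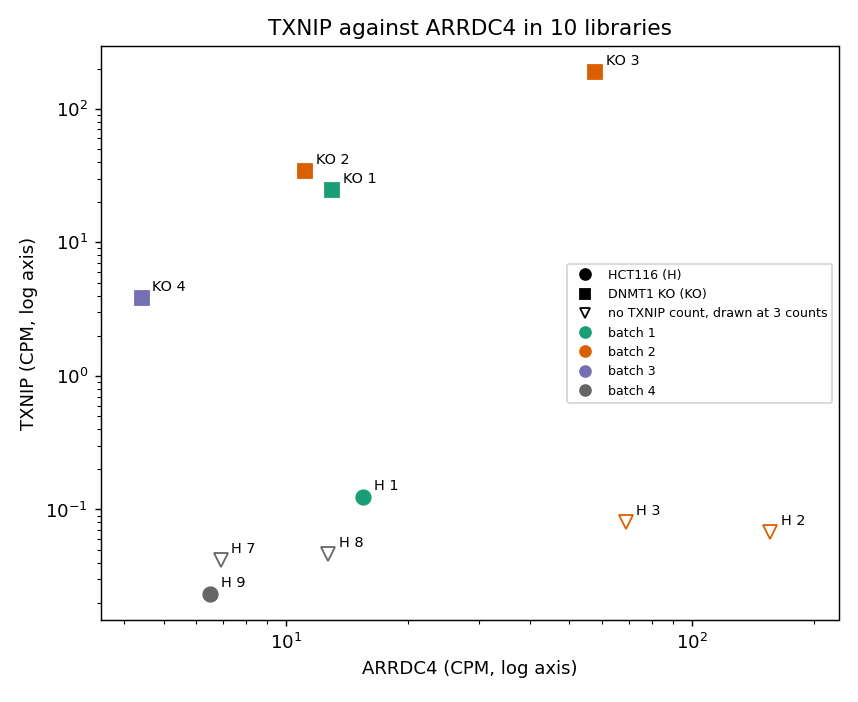
TXNIP (y axis, CPM, log scale) against ARRDC4 (x axis, CPM, log scale) in each library, with squares for DNMT1 KO, circles for HCT116 and open triangles for HCT116 libraries with no TXNIP count, drawn at the level of 3 counts. The 4 DNMT1 KO libraries rise from 3.82 to 188 CPM of TXNIP and share the highest and lowest library on both axes, whereas HCT116 replicates 2 and 3 have 156 and 68.7 CPM of ARRDC4 without a TXNIP count.

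ARRDC1 (ENSG00000197070, chr9:137605685-137615360, plus strand) acts in the budding of vesicles from the plasma membrane. It was 23.3 CPM in the lowest HCT116 library, 38.3 CPM at the median and 93.4 CPM in the highest, and 31.2, 18.2, 18.9 and 21.2 CPM in DNMT1 KO replicates 1 to 4. The groups overlapped because HCT116 replicates 7 to 9, at 23.3 to 26.1 CPM, lay within the range of DNMT1 KO. The log2 fold change was -1.04 ± 0.39 (SE, adjusted p = 0.0882, edgeR).

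ARRDC3 (ENSG00000113369, chr5:91368631-91383317, minus strand), an adaptor in the trafficking of the beta-2 adrenergic receptor, was 35.3 CPM in the lowest HCT116 library, 59.7 CPM at the median and 98.7 CPM in the highest. In DNMT1 KO it was 32.3, 19.3, 60.7 and 26.0 CPM, so replicate 3 alone lay within the HCT116 range. The log2 fold change was -0.88 ± 0.37 (SE, adjusted p = 0.132), and it was -1.28 (adjusted p = 0.0324, edgeR, past both limits) without DNMT1 KO replicate 3. ARRDC2 (ENSG00000105643, chr19:18001132-18014102, plus strand), another member of the family, was the steadiest of the 5 alpha-arrestins, at 27.8 to 57.0 CPM in HCT116 (median 32.7 CPM) and 38.2, 41.0, 34.8 and 42.7 CPM in DNMT1 KO. Its 4 DNMT1 KO values all fell inside the HCT116 range, and its log2 fold change was 0.07 ± 0.24 (SE, adjusted p = 0.885). The log2 ratio of the means was 0.30 within batch 1 and -0.42 within batch 2.

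Of the glucose-sensing factors, MLXIP was the most alike between the lines. MLXIP (ENSG00000175727, chr12:122078756-122147344, plus strand), which encodes MondoA, was 88.9 to 198 CPM in HCT116 (median 148 CPM) and 109, 122, 144 and 144 CPM in DNMT1 KO. All 4 DNMT1 KO values fell inside the HCT116 range, with a log2 fold change of -0.16 ± 0.24 (SE, adjusted p = 0.721, edgeR). The sign turned to 0.056 when libraries were scaled by their totals alone.

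MLXIPL (ENSG00000009950, chr7:73593194-73624543, minus strand), which encodes ChREBP, was 13.3 CPM in the lowest HCT116 library, 26.0 CPM at the median and 48.3 CPM in the highest. In DNMT1 KO it was 11.1, 11.1, 22.6 and 6.67 CPM, with replicate 3 alone inside the HCT116 range. The log2 fold change was -1.13 ± 0.43 (SE, adjusted p = 0.0971, edgeR), and MLXIPL was the single gene of the 9 that DESeq2 called (-1.13, adjusted p = 0.0484).

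MLX (ENSG00000108788, chr17:42567068-42573239, plus strand), the partner of both factors, was the only one of the 9 genes whose lines did not overlap. It was 74.9 CPM in the lowest HCT116 library, 101 CPM at the median and 144 CPM in the highest, and 62.7, 65.4, 70.3 and 69.5 CPM in DNMT1 KO. The DNMT1 KO libraries were close together, 1.12-fold from lowest to highest, against 1.93-fold in HCT116. Non-overlap was seen in 15.2% of all tested genes, and the log2 fold change of -0.69 ± 0.24 (SE, adjusted p = 0.0597, edgeR) passed neither limit. MLX shares 770 of its exonic bases (18.1%) with PSMC3IP on the opposite strand, and reads in that stretch cannot be assigned to either gene without strand.

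The balance of the paralogous factors was compared within each library, where scaling between libraries has no effect. MLXIPL made up 6.31 to 22.9% of the summed MLXIPL and MLXIP counts in HCT116 and 4.41 to 13.5% in DNMT1 KO. The log2 ratio of MLXIPL to MLXIP was -2.07, -1.93, -1.75, -3.89, -2.72 and -2.68 in HCT116 replicates 1, 2, 3, 7, 8 and 9, and -3.29, -3.46, -2.68 and -4.43 in DNMT1 KO replicates 1 to 4. HCT116 replicate 7 was the one HCT116 library below most of DNMT1 KO. The means were -2.51 ± 0.78 (SD, n = 6) and -3.47 ± 0.73 (SD, n = 4), a difference of -0.96 that did not pass the exact permutation test over 210 splits (two-sided p = 0.0952, smallest possible 0.00952). Batch 1 alone gave a difference of -1.22 and batch 2 alone one of -1.23. When HCT116 replicate 7 was left out, the difference was -1.23 (exact permutation p = 0.0476). Within HCT116, every batch 4 library (replicates 7, 8 and 9) was below every library of batches 1 and 2. The means there were -3.10 ± 0.69 in batch 4 and -1.92 ± 0.16 in batches 1 and 2 (SD, 3 libraries each). This difference of -1.18 within HCT116 had an exact permutation p of 0.1, the smallest that 20 splits allow.

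**Figure D3:**
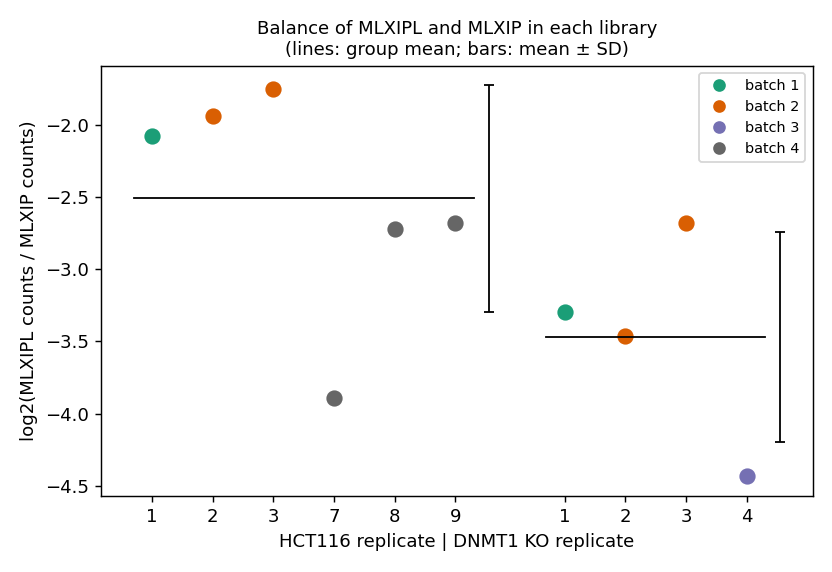
Log2 ratio of MLXIPL counts to MLXIP counts (y axis) in each HCT116 and DNMT1 KO library (x axis, replicate number, coloured by batch), with the group mean as a line and the mean ± SD as a bar. In batches 1 and 2 every HCT116 library, at -2.07 to -1.75, is above every DNMT1 KO library, at -3.46 to -2.68. The HCT116 libraries of batch 4, replicates 7, 8 and 9, are at -3.89, -2.72 and -2.68.

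TXN (ENSG00000136810, chr9:110243810-110256507, minus strand), the thioredoxin that TXNIP binds, was 43.5 CPM in the lowest HCT116 library, 117 CPM at the median and 173 CPM in the highest. In DNMT1 KO it was 75.5, 53.7, 56.2 and 81.4 CPM, all inside the HCT116 range, with a log2 fold change of -0.73 ± 0.35 (SE, adjusted p = 0.201, edgeR). The sign rested on batches other than batch 2, within which the log2 ratio of the means was 0.03.

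SLC2A1 (ENSG00000117394, chr1:42925375-42959176, minus strand), which encodes GLUT1, was 206 CPM in the lowest HCT116 library, 330.5 CPM at the median and 670 CPM in the highest, replicate 1. In DNMT1 KO it was 262, 210.2, 94.3 and 241 CPM. The lowest was replicate 3, the library richest in TXNIP and the lowest of its group for 29.9% of all tested genes. The means were 358 ± 165 CPM (SD, n = 6) and 202 ± 74.9 CPM (SD, n = 4), with a log2 fold change of -0.83 ± 0.36 (SE, adjusted p = 0.145, edgeR).

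Over the 9 genes, none passed an adjusted p of 0.05 together with a log2 fold change beyond 1 in edgeR, where 13.9% of all tested genes were called (7.42% higher and 6.49% lower). At an unadjusted p of 0.05, 5 of the 9 passed, all of them lower in DNMT1 KO, where 13.3% of all tested genes were higher and 14.3% lower at that p. DESeq2 called 1 of the 9, lower, where it called 16.0% of all genes (8.45% higher and 7.51% lower). The sign was negative in 8 of the 9, where 54.4% of all tested genes were negative, and the median log2 fold change was -0.83 against -0.07 over all tested genes. The labels number the libraries as replicates, and the p-values measure the spread between these libraries.

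When the comparison was restricted to batches 1 and 2, with 3 libraries of each line and batch as a term in the model, 3 of the 9 genes were called lower, where 14.3% of all genes tested were called (7.37% higher and 6.98% lower). The log2 fold change was -1.56 ± 0.23 for ARRDC1 (SE, adjusted p = 0.00205, edgeR), -1.46 ± 0.31 for MLXIPL (adjusted p = 0.0133) and -1.25 ± 0.32 for SLC2A1 (adjusted p = 0.0311). Their within-batch log2 ratios were alike, at -1.58 and -1.55 in batches 1 and 2 for ARRDC1, -1.55 and -1.42 for MLXIPL, and -1.35 and -1.20 for SLC2A1. The other 6 genes had log2 fold changes from -1.24 (ARRDC4, adjusted p = 0.229) to -0.18 (ARRDC2, adjusted p = 0.733) and were not called. MLX, whose libraries did not overlap over all batches, had a log2 fold change of -0.36 (adjusted p = 0.351) here, and TXN had -0.30 (adjusted p = 0.574).

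The difference between both fits was followed in the HCT116 libraries alone, a comparison that played no part in choosing TXNIP. Replicates 7 to 9 (batch 4) were set against replicates 1 to 3 (batches 1 and 2), and 3 of the 9 genes were called lower in batch 4, where 8.03% of 18656 tested genes were called (3.09% higher and 4.94% lower). ARRDC4 was 80.2 ± 71.1 CPM in batches 1 and 2 and 8.71 ± 3.47 CPM in batch 4 (SD, n = 3 and 3), and fell by 3.22 ± 0.60 on the log2 scale (SE, adjusted p = 0.00836, edgeR). ARRDC1 went from 67.3 ± 22.9 to 24.9 ± 1.46 CPM and fell by 1.45 ± 0.32 (SE, adjusted p = 0.0163, edgeR). MLXIPL went from 40.8 ± 7.92 to 15.5 ± 3.56 CPM and fell by 1.41 ± 0.32 (SE, adjusted p = 0.0183, edgeR). These batch 4 means stand beside 22.4 ± 6.03 CPM for ARRDC1 and 12.9 ± 6.80 CPM for MLXIPL in DNMT1 KO (SD, n = 4). MLX was higher in every batch 4 library than in any of the others (132 ± 20.5 against 84.9 ± 9.61 CPM, log2 fold change 0.61, adjusted p = 0.212), and non-overlap between these groups was seen for ARRDC1, ARRDC4, MLXIPL and MLX, 4 of the 9 genes, and for 29.4% of all genes tested. TXNIP had 4 counts in the batch 1 and 2 libraries and 2 in the batch 4 libraries.

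These calls within HCT116 rested on few libraries. Leaving out replicate 7 left none of the 9 genes called, and leaving out replicate 8 or replicate 9 left 1, ARRDC4. ARRDC4 lost its call without replicate 7 (-3.09, adjusted p = 0.0676), and MLXIPL lost its call without replicate 2 as well. TXN was called higher in batch 4 (1.31, adjusted p = 0.0183, edgeR) without replicate 1. No DNMT1 KO library belongs to batch 4, and no HCT116 library belongs to batch 3. For HCT116 replicates 7 to 9 and DNMT1 KO replicate 4, batch and line therefore cannot be told apart. The comparisons above share HCT116 replicates 1 to 3.

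**Figure D4:**
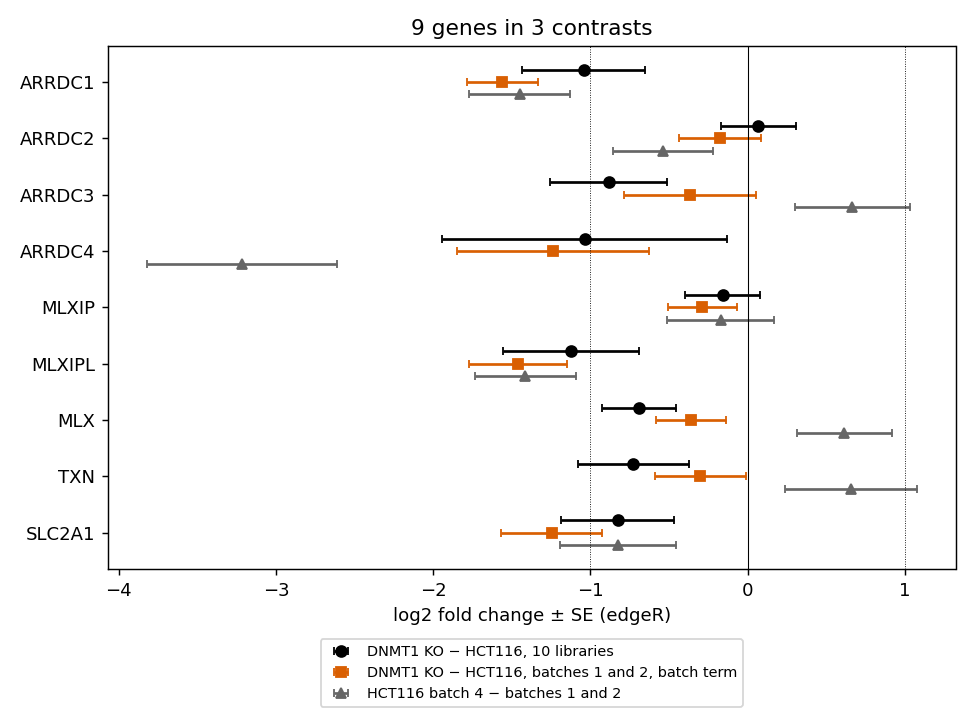
Log2 fold change with its SE (x axis, edgeR) of the 9 genes other than TXNIP (y axis) in 3 comparisons, DNMT1 KO against HCT116 over all 10 libraries (circles), the same within batches 1 and 2 with batch as a term (squares) and HCT116 batch 4 against batches 1 and 2 (triangles), with dotted lines at -1 and 1. The 3 comparisons share libraries. ARRDC1, MLXIPL and SLC2A1 lie left of 0 in all 3, ARRDC4 lies farthest left in the HCT116 comparison at -3.22, and ARRDC3, MLX and TXN lie left of 0 in DNMT1 KO and right of it in HCT116 batch 4.

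Levels can be compared between genes only per exonic length. In HCT116 the order of the mean CPM per kilobase of exon was TXN (109), SLC2A1 (75.8), MLX (25.4), ARRDC3 (12.8), ARRDC1 (12.2), ARRDC4 (10.9), MLXIP (10.5), ARRDC2 (8.06), MLXIPL (5.84) and TXNIP (0.00676). The steps from SLC2A1 to MLX, from MLX to ARRDC3 and from MLXIPL to TXNIP held in all 6 libraries, while TXN was above SLC2A1 in 4 of 6 and the genes from ARRDC3 to MLXIP were not separated by their spread. In DNMT1 KO the order was TXN (66.0), SLC2A1 (42.8), TXNIP (17.3), MLX (15.7), MLXIP (9.37), ARRDC2 (8.45), ARRDC3 (6.93), ARRDC1 (5.90), ARRDC4 (5.32) and MLXIPL (2.67). The mean of TXNIP there covered 1.05 to 52.0 CPM per kilobase, and TXNIP was above MLX in 1 of 4 libraries, so its place in the order rested on replicate 3. TXN was above SLC2A1, and MLX above MLXIP, in all 4 DNMT1 KO libraries.

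**Figure D5:**
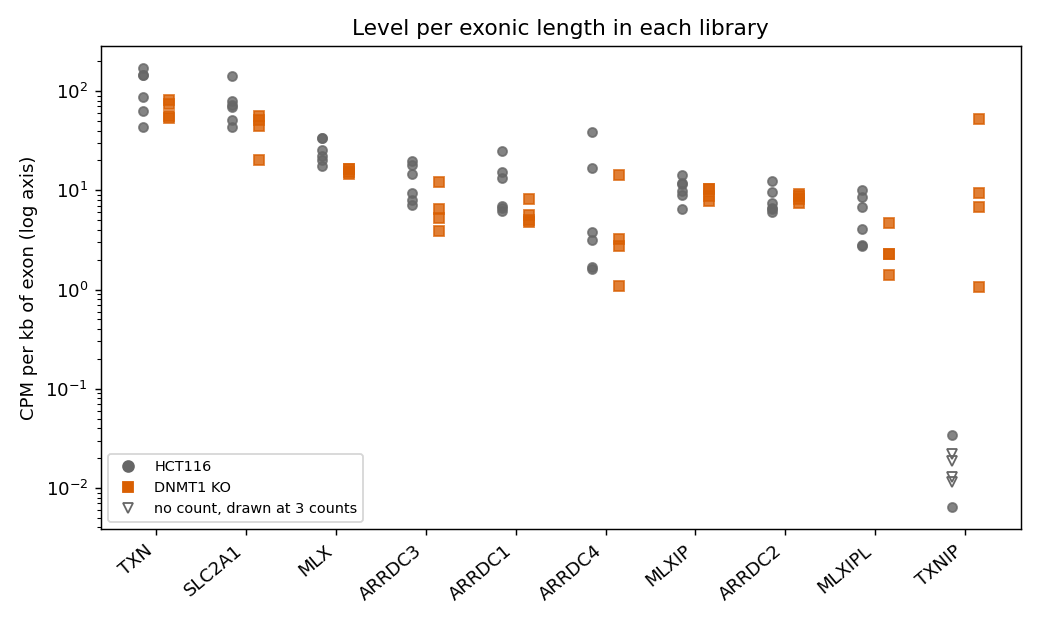
CPM per kilobase of exon (y axis, log scale) of each of the 10 genes (x axis, ordered by the HCT116 mean) in each HCT116 library (grey circles) and DNMT1 KO library (orange squares), with open triangles at 3 counts where HCT116 had no TXNIP count. TXN and SLC2A1 have the highest means in both lines, although TXNIP is above SLC2A1 in DNMT1 KO replicate 3, and TXNIP is far below every other gene in HCT116 and spread from 1.05 to 52.0 in DNMT1 KO.

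The genes of the wider pathway were read from 8 lists with 106 genes, of which 90 were tested. In DNMT1 KO, 4 of the 90 were called higher and 4 lower (8.89%), against 13.9% of all tested genes, and their median log2 fold change was -0.10. Without DNMT1 KO replicate 1 or without replicate 4, the number called lower was 2.

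Among 9 ubiquitin ligases of the NEDD4 family, the enzymes that alpha-arrestins recruit, 1 rose and 1 fell. NEDD4L went from 41.1 ± 11.1 CPM (SD, n = 6) in HCT116 to 16.9 ± 2.47 CPM (SD, n = 4) in DNMT1 KO, a log2 fold change of -1.28 (adjusted p = 0.0026, edgeR), and HECW1 from 2.85 ± 0.51 to 10.5 ± 2.19 CPM, a log2 fold change of 1.89 (adjusted p = 0.000126, edgeR). Of the 17 thioredoxin and glutaredoxin genes, all tested, 1 fell, TXNRD3, which encodes a thioredoxin reductase (log2 fold change -1.09, adjusted p = 0.0246, edgeR). The major cytosolic reductase TXNRD1 was 648 ± 90.4 CPM and 582 ± 152 CPM (log2 fold change -0.15, adjusted p = 0.723).

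Of the 8 tested glucose transporters other than SLC2A1, SLC2A4, the insulin-responsive GLUT4 gene, rose by 1.61 on the log2 scale from 2.38 ± 0.74 to 7.31 ± 2.55 CPM (adjusted p = 0.00389, edgeR). SLC5A1, the sodium-coupled glucose transporter SGLT1, fell by 3.59 from 2.73 ± 2.91 to 0.212 ± 0.16 CPM (adjusted p = 0.0208, edgeR). SLC5A1 also fell within HCT116, with a log2 fold change of -3.70 in batch 4 against batches 1 and 2 (adjusted p = 0.00191, edgeR). In DNMT1 KO it had a log2 fold change of -4.21 in the fit with batch as a term (adjusted p = 0.000372, edgeR). SLC2A11 is listed at 0 in every library.

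Of 26 tested genes of glycolysis and lactate handling, 1 was called, SLC16A3, the lactate exporter MCT4, which went from 384 ± 108 to 165 ± 60.2 CPM (log2 fold change -1.22, adjusted p = 0.0102, edgeR). In the same list LDHA had a log2 fold change of -0.56 (adjusted p = 0.31) and HK2 one of -0.23 (adjusted p = 0.669). Of the 8 tested targets that glucose induces through ChREBP in other tissues, edgeR called 0, with 2 lower and 0 higher at an unadjusted p of 0.05, and DESeq2 called 1 lower. RGS16, a regulator of G-protein signalling in that list, was 18.7 ± 15.4 CPM and 6.29 ± 0.62 CPM (log2 fold change -1.57, adjusted p = 0.0507). It fell by 1.97 in the fit with batch as a term (adjusted p = 0.00936, edgeR). Within HCT116, RGS16 also had a log2 fold change of -1.77 in batch 4 against batches 1 and 2 (adjusted p = 0.0283, edgeR). The glucose-induced liver genes PKLR and G6PC1 are listed at 0 in every library.

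In the MYC-MAX-MXD network, whose proteins bind the same E-boxes, 1 of 9 tested genes rose, the repressor gene MXD4 (log2 fold change 1.44, adjusted p = 0.0481, edgeR), with a log2 fold change of 0.87 and no call once batch was a term. Of the 8 tested AMPK subunits and upstream kinases, the energy sensor that phosphorylates TXNIP, PRKAA2 rose from 14.2 ± 4.01 to 59.0 ± 22.4 CPM (log2 fold change 2.06, adjusted p = 0.000138, edgeR). PRKAG1 and PRKAG2, regulatory subunits of the same kinase, had log2 fold changes of -0.82 and -0.96 with adjusted p-values of 0.0228 and 0.021, short of the fold limit. Of 5 tested genes of other arrestin-fold proteins, edgeR and DESeq2 called 0. ARRB2 (log2 fold change 0.79, adjusted p = 0.0253, edgeR) and VPS26B (0.83, adjusted p = 0.0101, edgeR) were short of the fold limit alone. They were the 2 genes of this list that were higher at an unadjusted p of 0.05, where 13.3% of all tested genes were higher.

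The neighbourhood of TXNIP was read to see whether nearby genes differed between the lines as well. Of 36 annotated genes that start within 500 kb of the TXNIP start, 19 were tested, and their log2 fold changes ran from -1.83 to 1.17 with a median of 0.14. edgeR called 0 of them higher (7.42% of all tested genes), with 3 higher at an unadjusted p of 0.05 (13.3% of all tested genes), and DESeq2 called 1 higher (8.45% of all tested genes). The single gene called lower, where 6.49% of all tested genes were, was ITGA10, an integrin subunit (1.05 ± 0.45 CPM to 0.287 ± 0.11 CPM, log2 fold change -1.83, adjusted p = 0.0173, edgeR). LIX1L, 38.6 kb away, had a log2 fold change of 0.90 (adjusted p = 0.00638), and POLR3GL, 31.9 kb away, had one of -0.17 (adjusted p = 0.801).

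The protein-coding genes whose levels over the 10 libraries were most like TXNIP were MAGEB18, ADAMTSL2, ZNF541, ACTN2 and NDNF, with Pearson's r of 0.995, 0.993, 0.993, 0.992 and 0.989 for log2(CPM + 0.5). MAGEB18, a gene of the melanoma antigen family, had no count in HCT116 and 1.84, 2.10, 3.27 and 0.521 CPM in DNMT1 KO replicates 1 to 4. NDNF, which encodes a secreted neurotrophic factor, was at most 0.217 CPM in HCT116 and 1.62, 2.29, 4.98 and 1.22 CPM in DNMT1 KO. That these genes were low in HCT116 and highest in DNMT1 KO replicate 3 follows from how they were chosen, and all points share the libraries and their depth. The 9 other genes of the set had r from -0.70 (SLC2A1) to 0.07 (ARRDC2), with ARRDC4 at 0.02. Over all 10 libraries, r with TXNIP mostly reflects the step between the lines by which TXNIP was chosen. It therefore cannot show whether these genes and TXNIP vary together within DNMT1 KO.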

How the data were processed

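Poly(A)-selected stranded RNA libraries of HCT116 (n = 6) and DNMT1 KO (n = 4) cells were sequenced as paired ends. The authors trimmed reads with Trim Galore 0.4.1 after FastQC 0.11.4, aligned pairs to hg38 using Bowtie2, an aligner without spliced alignment, removed reads of low mapping quality and deposited raw counts per gene from featureCounts, with no strand option named. Exons shared by overlapping genes could therefore not be separated by strand. A further 3 count tables that belong to no listed sample were not used here.

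Counts were read as deposited. Differences were tested with edgeR 4.0.16 (R 4.3.3) by the quasi-likelihood test after TMM scaling and the default filterByExpr filter, with group as the only term, two-sided, with Benjamini-Hochberg adjustment over all 19279 genes tested. A call needed both an adjusted p below 0.05 and an absolute log2 fold change above 1. The alternatives were DESeq2 1.42.0, other scalings and filters, batch as a term, the replicate number as a block, and leaving out each library. The log2 ratio of MLXIPL to MLXIP, with 0.5 added to each count, was tested by exact permutation in scipy 1.17.1. The edgeR fit was tested on simulated counts. Library totals of 26700853 to 85991812 counts set the precision.

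The members and lists were chosen with earlier results of these data known. Genes named beyond the 10 were, in each list, up to 3 called genes with the smallest adjusted p, called genes starting within 500 kb of TXNIP, and the 5 protein-coding genes with the highest Pearson correlation with TXNIP. ARRB2, VPS26B, PRKAG1, PRKAG2, TXNRD1, LDHA, HK2, RGS16, LIX1L and POLR3GL, the genes listed at 0, and the markers PTPRC, CD3E and COL1A1 were named after their values were seen. The result of 1 marker gene is not reported here.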

Additional observations from a re-analysis of the deposited data

Results flagged for a closer look

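In 4 of the 22 sets of values examined (each gene, and the log2 ratio of MLXIPL to MLXIP, in each line), the highest or lowest library lay farther from its nearest neighbour than Dixon's 95% critical value allows, where chance gives about 1.1. Of these, 2 are of TXNIP, which was chosen by its values and lies near the limit of detection in HCT116. Without TXNIP there were 2 of 20, where chance gives about 1. TXNIP in HCT116 was set apart by replicate 1, at 0.124 CPM from 4 counts, against at most 2 counts in any other HCT116 library. In DNMT1 KO, replicate 3 stood apart for TXNIP at 188 CPM, against 3.82 to 34.3 CPM in the other libraries, and for ARRDC4 at 57.9 CPM, against 4.41 to 13.0 CPM. SLC2A1 was 670 CPM in HCT116 replicate 1, against 206 to 374 CPM in the other HCT116 libraries. The libraries concerned are HCT116 replicate 1 and DNMT1 KO replicate 3, and the cause was not tested.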

How the results depend on the processing

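Over all genes, 1431 were called higher and 1251 lower in DNMT1 KO. A minimum of 10 counts in every library gave 734 and 766, batch 2 alone gave 815 and 798, and leaving out each library in turn gave 1214 to 1587 and 987 to 1250. Scaling by library totals alone moved the median log2 fold change of all genes from -0.07 to 0.14 and the share of calls that were higher from 53.4% to 66.3%. Of the 9 genes other than TXNIP, 0 were called lower, against 2 with no filter, 1 with DESeq2, 3 with batch as a term, 2 in batches 1 and 2 without that term, 1 in batch 2 alone and 0 to 2 without each library. The calls without a library were ARRDC1 without HCT116 replicate 9 (-1.18, adjusted p = 0.0496) and, without DNMT1 KO replicate 3, ARRDC3 (-1.28) and MLXIPL (-1.53, adjusted p = 0.0412). ARRDC2 changed sign to -0.18 with batch as a term, -0.21 without it, -0.41 in batch 2 and -0.0028 without HCT116 replicate 8 (-0.0028 to 0.26 without each library), MLXIP to 0.056 with library totals, and TXN to 0.030 in batch 2. ARRDC4, not called under any of them, ran from -2.23 to -0.03 without each library. Counts halved in the 9 mostly even libraries gave 1284 genes higher and 1175 lower and 0 of the 9 genes called. The fitted log2 fold change of TXNIP was 11.56, 9.99 to 12.83 without each library and 15.45 in batch 2, values that depend on the prior count.

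Same-numbered libraries of both lines deviated together for replicates 1 and 3 (correlations of 0.55 and 0.37) and not for replicate 2 (-0.27), so the numbers were not taken to pair the libraries. With the replicate block, 3 of the 9 genes and 7 list genes were called lower, and ARRDC2 was at -0.17.

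Of the list genes, 4 were called higher and 4 lower. Library totals gave 9 higher and batch 2 alone gave 1 higher. Without a filter, with batch as a term and in batches 1 and 2 without that term, 7 were lower each time. Leaving out each library gave 3 to 6 higher and 2 to 6 lower. The difference in the log2 ratio of MLXIPL to MLXIP ran from -1.23 to -0.64 without each library, passing the test (exact permutation p = 0.0476) without HCT116 replicate 7.

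Within HCT116, alternatives chosen after seeing the data were run. Without each library, batch 4 against batches 1 and 2 gave 46 to 1800 genes higher (577 with all), 187 to 1770 lower (921 with all) and 0 to 3 of the 9 genes lower, and MLXIP, at -0.17 with all libraries, ran from -0.53 to 0.074, positive without HCT116 replicate 8. With counts of 0 to 4 in HCT116, the size of the TXNIP difference was limited by depth. The cause of these changes was not tested.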
